A study of Mus musculus with 12 samples.

Results

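The comparison described here set cells kept in the small-molecule mixture FIBCL against the cochlear glial spheres from which they were made. Its members were chosen by the sample labels, as the 3 libraries titled FIBCL and the 3 sphere libraries, and so are 6 of the 12 RNA-seq libraries of the series. The other 6 libraries came from such spheres differentiated without the mixture, 3 in SCDM and 3 in SCDM/FGF, and are used below only to show where FIBCL stood apart. The question put by the design was how far the mixture moved the expression profile of glial cells from their starting state, and toward which genes.

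The ganglion of the cochlea, in its bony core called the modiolus, holds the spiral ganglion neurons, which carry sound signals from hair cells to the brain, and the glia around them. Satellite glia wrap the cell bodies and Schwann cells wrap the axons, and both depend on the transcription factor Sox10. Neurons lost from this ganglion are not replaced in mammals, while the glia beside them can divide in culture. Forskolin raises cyclic AMP by activating adenylyl cyclase, ISX9 was described as a calcium and MEF2 pathway activator that favours neuronal genes, and I-BET compounds keep BET bromodomain proteins off acetylated chromatin. CHIR99021 blocks GSK3 and so stabilises beta-catenin, and LIF signals through its receptor and gp130 to STAT3.

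All spheres were grown from trypsin-digested modiolus of mice of both sexes on a mixed C57Bl6 and FVB/N background. The labels give postnatal day 4 as the age and 6 to 8 mice for a preparation. The sphere medium was DMEM/F12 with B27, N2, EGF at 20 ng/ml, bFGF at 10 ng/ml, IGF at 50 ng/ml and heparan sulfate at 50 ng/ml, and spheres were harvested after 5 to 7 days. FIBCL cells were spheres plated on poly-L-ornithine and laminin and kept for 14 days in Neurobasal with B27 and N2, Forskolin at 20 µM, ISX9 at 20 µM, I-BET at 1 µM per the labels, CHIR99021 at 10 µM and LIF at 1000 U/ml. The labels list bFGF in that medium both at 50 and at 100 ng/ml. SCDM was DMEM/F12 with B27, N2, BDNF and NT3 at 50 ng/ml each for 14 days on the same coating, and SCDM/FGF had bFGF at 100 ng/ml besides. The small molecules, LIF, the base medium, the growth factors, attachment to a coated surface and 14 days of culture therefore all differed between FIBCL and spheres, and their parts in a difference cannot be told apart. In the deposited table the 3 columns of these libraries are headed FIBC, a name without the letter for LIF, while every label reads FIBCL.

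No sort for glia was described for the spheres, which were made from the whole dissected modiolus, so the starting material can hold other cells. The libraries are bulk RNA, in which fewer cells of a type and less RNA per cell cannot be told apart. The labels call the libraries biological replicates but do not say which came from separate mice or cultures, so p-values measure the spread between these libraries. Levels are TPM, a share of transcripts corrected for gene length, rescaled so that the bulk of genes matched between libraries, and each set of 3 values is given in the order of replicates 1, 2 and 3. A gene is said to have risen or fallen in FIBCL where the adjusted p was under 0.05 and the absolute log2 fold change at least 1.5, by limma with Benjamini-Hochberg adjustment over 16016 genes. Fold changes are differences of log2(scaled TPM + 1), which understate the change of genes with low values.

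Sequencing depth is unknown, since TPM values hold no read numbers. Between 21800 and 22281 genes were listed above 0 in the 6 libraries. At 1 TPM or more there were 14539 to 14681 genes in the spheres and 13550 to 13717 in FIBCL. The 10 most abundant genes held 12.8 to 13.3% of the listed TPM in the spheres and 23.9 to 26.9% in FIBCL, and genes of the mitochondrial genome held 5.89 to 6.54% and 10.0 to 10.3%. Pearson's r across genes was 0.984 to 0.985 between sphere libraries, 0.983 to 0.984 between FIBCL libraries and 0.812 to 0.817 between the groups, on log2(scaled TPM + 1).

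A set of very abundant features stood apart from the rest of the profile and was picked out after its values were seen, so it is given without a test. The feature CT010467.1, annotated as ribosomal RNA in GENCODE M21, was at 3199, 1886 and 2189.9 scaled TPM in the spheres and at 33356, 35394 and 53006 in FIBCL. Gphn, the gene of the synaptic scaffold gephyrin, was at 2097, 977 and 1468 in the spheres and at 43746, 44839 and 54082 in FIBCL, and Cmss1 was at 1776, 845 and 1386 and 42381, 42492 and 54431. In all 3 features every FIBCL library lay far above every sphere library, FIBCL replicate 3 was the highest of the 6, and sphere replicate 2 the lowest. The others (D130009I18Rik, Sspn, Gm24270, Il31ra, Camk1d, Lars2, Tmtc2 and Gm19951) had the same order of libraries at their ends, and the 11 together held 0.555 to 1.13% of the listed TPM in the spheres, 2.02 to 3.12% in the media without the mixture and 15.6 to 19.4% in FIBCL. The ratio of the FIBCL to the sphere mean was 31.4 for Gphn, 34.8 for Cmss1, 28.5 for Camk1d and 30.4 for Lars2, a mitochondrial leucyl-tRNA synthetase, and 16.7 for CT010467.1. Camk1d is also a member of the MEF2 and calcium signalling list. Whether the 11 features and the levels of other genes are related was not tested.

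**Figure D1:**
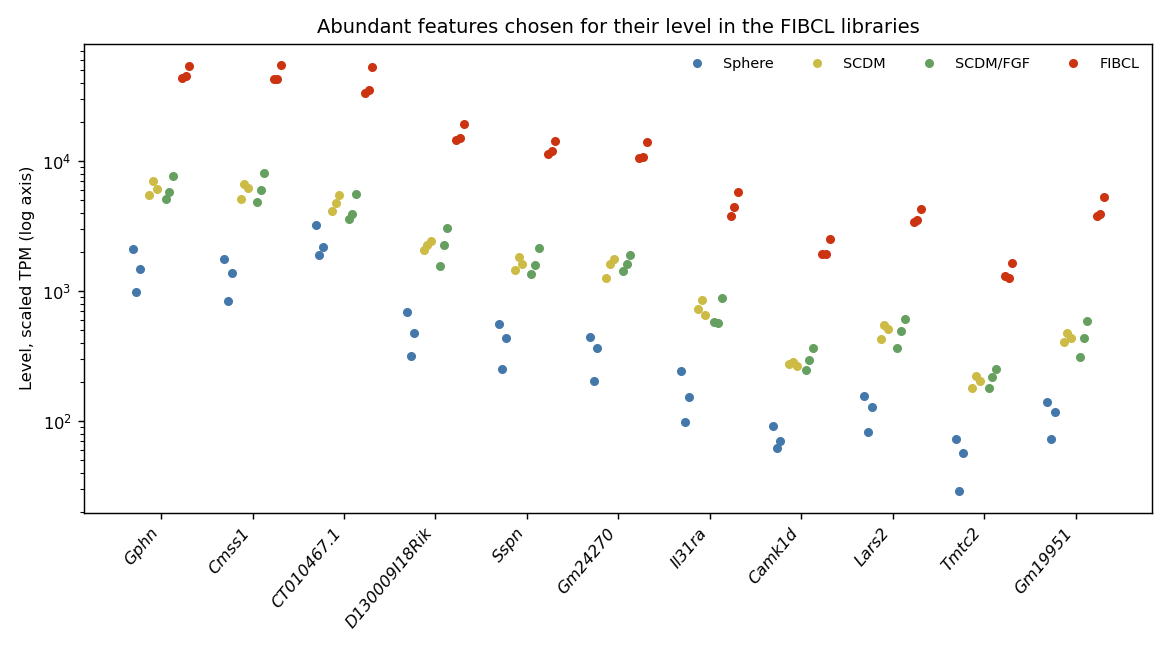
Level in scaled TPM (vertical log axis) of 11 abundant features (horizontal axis), 1 point a library, in spheres, SCDM, SCDM/FGF and FIBCL with 3 libraries each. All 3 FIBCL libraries lie above the other 9 for each feature, and the 2 media without the mixture lie between spheres and FIBCL.

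Over all genes, 1144 of 16016 rose in FIBCL (7.14%) and 1410 fell (8.80%). The adjusted p alone was met by 5276 genes higher and 6194 lower, or 32.9% and 38.7%, so the fold change limit decided most calls. The FIBCL libraries lay above all sphere libraries, with no overlap, in 34.6% of genes and below them in 40.4%. On the TPM as deposited, without rescaling, the median over all genes was -0.51 on the log2 scale in place of -0.06, with 761 genes higher and 2224 lower, so higher genes were 25.5% of the calls in place of 44.8%. Changes are therefore relative to the bulk of genes, and 48 genes had a log2 fold change of at least 5 against 79 at -5 or below.

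Secreted proteins stood at both ends of the profile. The largest rise was that of Vgf, a neuronal granin-like precursor, from 0.517, 0.472 and 0.723 in the spheres to 575, 496 and 514 in FIBCL, a log2 fold change of 8.40 (SE 0.10). The deepest fall was that of Otor, which encodes a secreted protein of the cochlea and fell from 6443, 7228 and 6515 to 0.323, 0.554 and 0.223, with a log2 fold change of -12.27 (SE 0.14). Apod, a lipocalin made by Schwann cells and fibroblasts, fell from 9540.3, 10444 and 9476 to 3.53, 3.92 and 2.90, and Mgp, a calcification inhibitor of the matrix, from 14492, 14880.5 and 14018 to 5.82, 5.91 and 5.40. Thus genes among the most abundant of the starting cells were low in every FIBCL library. Among the other genes at the lower end were the fibroblast genes Dcn, Lum and Col3a1, the matrix-associated genes Sparcl1, Dmp1 and Mmp3, and Cp, Hp, Ifitm1, Ptgds and the chemokine Cxcl12, with log2 fold changes between -9.72 for Sparcl1 and -7.37 for Cxcl12. Gzmb, a cytotoxic protease, was at 255, 291 and 268 in the spheres and is listed at 0 in all 3 FIBCL libraries. At the upper end, beside neuronal genes taken up below, stood Arl4c, a small GTPase, at 4.74, 4.49 and 3.97 in the spheres and 542, 561 and 552 in FIBCL, and Csn3, the milk protein kappa-casein, at 0.330, 0.175 and 0.0840 and 265, 302 and 304. The Gm10718, Gm10800, Gm2682, Gm48228 and Gm29554 models were also among the 15 highest, with log2 fold changes from 6.19 for Gm48228 to 8.07 for Gm10718. Gm10718 and Gm10800 belong to families of near-identical copies, whose share of reads is uncertain.

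**Figure D2:**
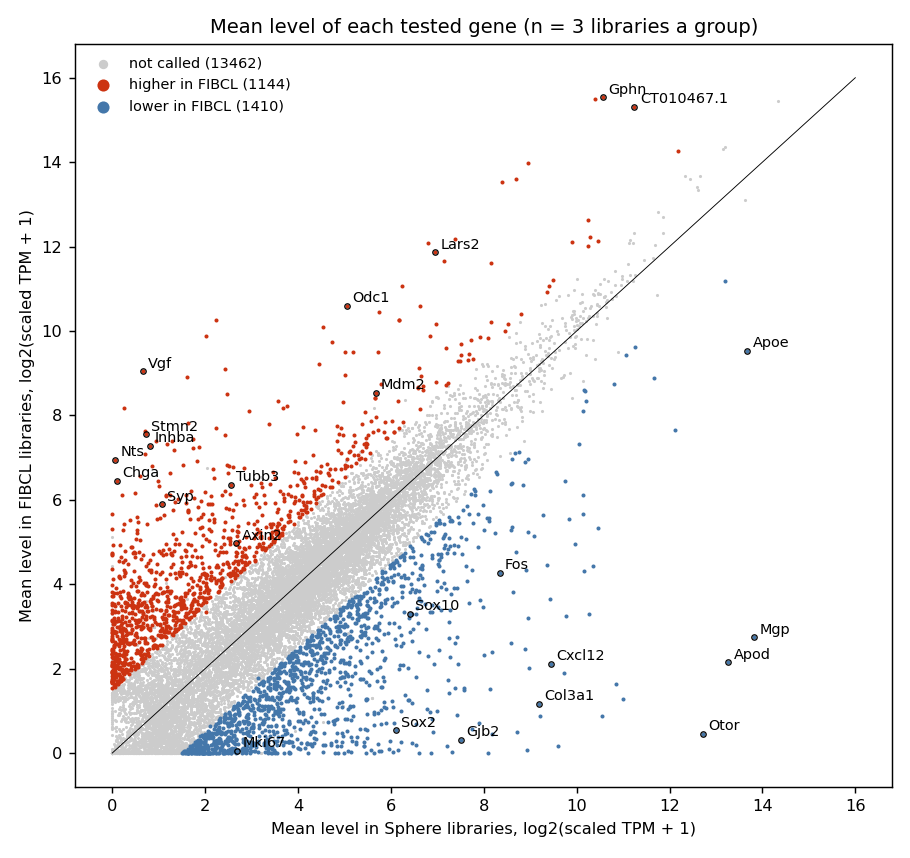
Mean level of each of the 16016 tested genes in the sphere libraries (horizontal) and the FIBCL libraries (vertical), both as log2(scaled TPM + 1) with n = 3. Red points are the 1144 genes that rose and blue points the 1410 that fell, the line marks equal levels, and named genes are circled, with Vgf far above the line and Otor, Mgp and Apod far below it.

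The label of the starting cells was checked against glial markers, which the spheres expressed and FIBCL had lost in large part. Sox10, the transcription factor of Schwann and satellite glia, was at 85.4, 83.0 and 82.5 in the spheres and at 10.0, 8.21 and 8.41 in FIBCL (log2 fold change -3.10, SE 0.11). Sox2, a factor of progenitors and immature glia, was at 67.1, 68.2 and 67.8 and then 0.742, 0.259 and 0.355 (-5.58, SE 0.12). Cdh19, a cadherin of Schwann cell precursors, was at 59.0, 62.8 and 63.9 and then 0.263, 0.0739 and 0.289 (-5.71, SE 0.09). In all 3 genes FIBCL lay below the spheres without overlap, as in 40.4% of all genes, and Sox10 kept the highest level of the 3 in FIBCL. Of the 20 glial identity genes tested, 15 fell, 1 rose and 4 did neither, with a median log2 fold change of -3.78 beside -0.06 over all genes (adjusted p of the called genes at most 1e-07, limma). The summed level of the list was 13664 to 15039 in the sphere libraries and 829.9 to 904 in the FIBCL libraries, most of it Apoe, a lipid carrier of glia and macrophages, with means of 13083 and 736.

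The same loss ran through the calcium-binding protein S100b, at 78.6, 88.8 and 76.6 in the spheres and 1.38, 1.28 and 1.49 in FIBCL, and the neurotrophin receptor Ngfr, at 257, 261 and 246 and 4.32, 3.41 and 4.38. The neuregulin receptor Erbb3, on which Schwann cells depend, was at 32.0, 32.5 and 34.1 and 2.19, 1.64 and 1.77. Gfap, the glial intermediate filament, was at 65.4, 62.1 and 57.5 and 0.120, 0.0246 and 0.0394, so that the FIBCL values lay near the smallest the deposited table can show. The exception was Ptprz1, a receptor phosphatase of glia and neural progenitors, which rose from 4.11, 4.41 and 4.01 to 17.5, 15.9 and 17.1, a call that was lost on the deposited TPM. Glul, the glutamine synthetase of satellite glia, had a log2 fold change of 0.08 and did not pass. In the media without the mixture, Sox10 averaged 28.9 in SCDM and 31.0 in SCDM/FGF, and Gfap 31.9 and 32.9, between the spheres and FIBCL in each case. Against the same spheres, 6 glial genes were lower in SCDM, where 2.42% of all genes were, and 4 in SCDM/FGF, where 1.92% were, with list medians of -1.14 and -0.97.

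Myelin genes fell in part. Of 19 tested, 7 fell, 0 rose and 12 did neither (median log2 fold change -1.26). Mbp, the myelin basic protein, went from 35.1, 37.0 and 34.2 to 1.04, 0.394 and 2.05 and Lgi4, a secreted signal for myelination, from 27.8, 26.0 and 28.5 to 0.0957, 0.0246 and 0.250. Markers of central glia were also present in the spheres and 5 of 6 fell, among them Olig1, from 37.5, 36.7 and 36.1 to 0.155, 0.246 and 0.171. Aqp4, a water channel of astrocytes, was at 27.4, 26.0 and 26.9 in the spheres and is listed at 0 in every FIBCL library.

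The spheres also expressed mesenchymal genes, at levels like those of glial genes. Pou3f4, the transcription factor of otic mesenchyme, was at 149.7, 145 and 153 in the spheres and 26.8, 27.3 and 27.9 in FIBCL (log2 fold change -2.40, SE 0.05). Pdgfra, a PDGF receptor of fibroblasts, was at 127, 119 and 139 and 9.71, 10.0 and 10.1, and Gjb2, the connexin of cochlear supporting cells and fibrocytes, at 177, 181 and 182 and 0.239, 0.296 and 0.184. In these 3 genes every FIBCL library lay below every sphere library, as in 40.4% of all genes. Of 20 mesenchyme and fibrocyte genes tested, 11 fell and 1 rose, with a median of -1.54 and summed levels of 1074 to 1126 in the sphere libraries and 350.2 to 376 in the FIBCL libraries. Against that direction stood Twist1, a mesenchymal transcription factor, at 31.8, 32.5 and 31.9 in the spheres and 101, 113 and 116 in FIBCL (log2 fold change 1.74), whose call was lost on the deposited TPM. Prrx1, another mesenchymal factor, was at 21.3, 20.4 and 21.2 and 59.2, 62.8 and 60.2, with a log2 fold change of 1.49 just under the limit, and passed without FIBCL replicate 1, under quantile scaling and with a pseudocount of 0.1 or 0.5.

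Matrix genes fell as well. Of 31 collagen chains, 23 fell and 1 rose, with a median log2 fold change of -3.19. Col3a1, a chain of soft connective tissue, fell from 599, 559 and 587 to 0.766, 2.02 and 0.920, and the cartilage collagen Col2a1 from 528, 487 and 485 to 2.91, 3.48 and 2.79. Col4a1, a chain of the basement membrane that Schwann cells lay down, fell from 1028, 953 and 1032 to 30.8, 31.1 and 27.7. The single riser was Col7a1, at 6.17, 6.58 and 6.07 in the spheres and 23.2, 14.3 and 25.2 in FIBCL, which was no longer called on the deposited TPM, without FIBCL replicate 1 or without FIBCL replicate 3. Summed over the list, collagen chains came to 7089 to 7486 in the sphere libraries and 479 to 506 in the FIBCL libraries. Of the other 34 matrix genes, 16 fell and 2 rose (median -1.24), beside 8.80% and 7.14% of all genes, the risers being Lama5, a laminin chain of basement membranes, from 1.68, 3.03 and 2.38 to 65.7, 63.3 and 65.7, and Thbs2, a thrombospondin, from 58.8, 55.4 and 61.9 to 179.9, 177 and 172, a call that was lost on the deposited TPM. Fn1, fibronectin, had a log2 fold change of 0.62 and did not pass. Collagens had medians of 0.23 in SCDM and -0.43 in SCDM/FGF, where Col1a1 averaged 395 and 83.2 scaled TPM beside 39.9 in the spheres and 6.44 in FIBCL.

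**Figure D3:**
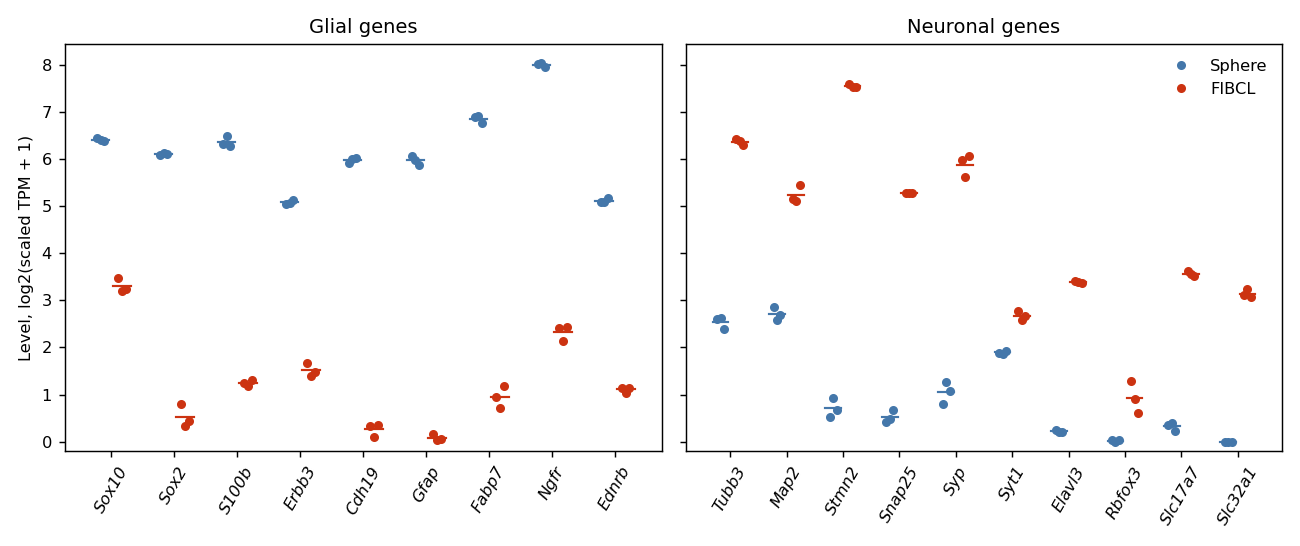
Level of 9 glial genes (left) and 10 neuronal genes (right) as log2(scaled TPM + 1), 1 point a library, with a bar at the mean of the 3 libraries of a group. The sphere points lie above the FIBCL points for all 9 glial genes and below them for all 10 neuronal genes, with the smallest gaps in Syt1 and Rbfox3.

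Neuronal structural genes rose in FIBCL, which the labels describe as induced neurons. Of 7 general neuronal markers, 5 rose (Tubb3, Map2, Stmn2, Snap25 and Elavl3), Syt1 did not pass and Rbfox3 was too low to be tested. Tubb3, the neuronal beta-tubulin, was at 5.06, 5.21 and 4.26 in the spheres and 84.7, 81.8 and 77.3 in FIBCL (log2 fold change 3.82, SE 0.09). Map2, the dendritic microtubule protein, was at 6.29, 4.96 and 5.43 and 34.4, 33.6 and 42.7 (2.53, SE 0.18), and Stmn2, a growth cone regulator of microtubules, at 0.440, 0.909 and 0.588 and 192, 184 and 184 (6.84, SE 0.12). In Tubb3 and Map2 every FIBCL library lay above every sphere library, as in 34.6% of all genes. Of 29 neuronal cytoskeleton and axon genes tested, 17 rose, 2 fell and 10 did neither, with a median log2 fold change of 2.52 (adjusted p of the called genes at most 2.3e-06, limma). The neurofilaments Nefl, from 3.50, 3.29 and 3.38 to 64.6, 70.2 and 66.4, and Nefm, from 6.89, 7.47 and 8.16 to 75.8, 64.3 and 68.8, were among them. So was Crmp1, a semaphorin signalling protein of axons, with 1.11, 0.717 and 0.588 in the spheres and 113, 110.0 and 109.6 in FIBCL. Gap43, a growth cone protein that Schwann cells also express, averaged 157 in the spheres and 73.2 in FIBCL, with a log2 fold change of -1.09 that did not pass. Dcx, the doublecortin of migrating young neurons, averaged 0.0226 and 0.0246 and was too low to be tested. Ank3, ankyrin G, which anchors channels at the axon initial segment and the node, fell from 104, 91.3 and 108 to 18.8, 19.2 and 20.8.

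Genes of the release machinery at synapses were next. Of 38 genes for synaptic vesicles and exocytosis, 21 rose and 0 fell (median 1.57 on the log2 scale). Syp, a protein of the vesicle membrane, was at 0.754, 1.41 and 1.11 in the spheres and 61.6, 47.7 and 65.9 in FIBCL (log2 fold change 4.83, SE 0.14). Snap25, a SNARE protein of the plasma membrane, was at 0.330, 0.393 and 0.605 and 37.8, 37.5 and 37.6 (4.75, SE 0.12). The spread among the 3 FIBCL libraries was small beside these differences, and wider in Syp. Syt1, the calcium sensor of fast release and a defining neuronal marker here, was at 2.71, 2.66 and 2.79 and 5.88, 5.00 and 5.32. Its log2 fold change of 0.78 missed the limit, although FIBCL lay above without overlap, as in 34.6% of all genes. Vesicle transporters of opposite transmitters both appeared, as Slc17a7, the glutamate transporter VGLUT1 that spiral ganglion neurons use, was at 0.280, 0.315 and 0.168 and 11.2, 10.8 and 10.4, and Slc32a1, which loads GABA and glycine, was listed at 0 in every sphere library and at 7.63, 8.50 and 7.41 in FIBCL. Among vesicle genes that glia share, Dnm1 had a log2 fold change of -1.02 and Vamp2 of 0.29, and neither passed.

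Neuropeptides and the proteins of dense-core vesicles made up the list with the highest median over tested genes, 3.30. Of 28 listed genes 21 were tested, and 14 rose and 0 fell. When genes without the 1 TPM minimum were let in, the median was 2.41 over 25 genes, beside 2.43 for the cytoskeleton list. That minimum can be met through the FIBCL libraries alone. Chga, chromogranin A, was at 0.0762, 0.0437 and 0.0840 in the spheres and at 90.5, 81.6 and 88.5 in FIBCL (log2 fold change 6.36, SE 0.09). Nts, the precursor of neurotensin, was at 0.0593, 0.0612 and 0 and then 113, 126 and 129 (6.89, SE 0.09), and Npy, neuropeptide Y, at 7.92, 10.2 and 10.2 and then 204, 239.6 and 226 (4.43, SE 0.26). Of these 3 genes, Npy was the one already present in the spheres. The granins Scg2, Scg3, Scg5 and Chgb rose to means of 23.1, 68.1, 41.8 and 11.7, from 0.538, 2.00, 0.674 and 0.282. Ptprn, the membrane protein IA-2 of secretory granules, rose from 14.9, 17.4 and 16.7 to 216, 205 and 211, and the peptide genes Gal and Calca rose to means of 12.8 and 10.9. The main processing enzymes did not pass. Cpe, which trims peptide ends, averaged 850.0 in the spheres and 496 in FIBCL (log2 fold change -0.78), and the convertase Pcsk1 0.321 and 2.07 (1.22). In the media without the mixture, Chga averaged 0.0124 for SCDM and 0.0668 for SCDM/FGF, Vgf 0.491 and 1.34, and Ptprn 1.45 and 80.3. Medians of the list were -0.18 in SCDM and -0.06 in SCDM/FGF.

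The promoters of Scg2, Chgb, Chga and Areg are shown as examples. They were picked for holding all or part of the element that CREB, a factor activated by cyclic AMP, is known to bind. Most peptide genes lack the full element, as counted below, and its part in any rise was not tested. Each sequence is the 100 bases before the start of the gene in RefSeq (GRCm38.p6), 5′ to 3′ on the strand of the gene, with the palindrome TGACGTCA, or the shorter TGACG in Chga, in capitals. Scg2 lies on the minus strand at chr1:79440027-79440126, Chgb on the plus strand at chr2:132781542-132781641, Chga on the plus strand at chr12:102554841-102554940, and Areg, an EGF receptor ligand among the 15 highest genes, on the plus strand at chr5:91139499-91139598.
Scg2: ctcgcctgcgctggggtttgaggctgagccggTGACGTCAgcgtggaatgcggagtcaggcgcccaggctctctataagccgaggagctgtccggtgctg
Chgb: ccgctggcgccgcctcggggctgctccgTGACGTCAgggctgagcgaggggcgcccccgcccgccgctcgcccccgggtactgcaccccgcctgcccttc
Chga: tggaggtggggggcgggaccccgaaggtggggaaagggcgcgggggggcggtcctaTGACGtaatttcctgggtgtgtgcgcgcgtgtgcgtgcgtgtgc
Areg: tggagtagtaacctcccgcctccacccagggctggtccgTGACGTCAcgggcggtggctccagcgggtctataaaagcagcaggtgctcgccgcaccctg
The first base of the match lay 68 bases before the start in Scg2, 72 in Chgb, 44 in Chga and 61 in Areg.

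Areg was at 0.762, 0.524 and 0.597 in the spheres and 124, 124 and 155 in FIBCL (log2 fold change 6.37, SE 0.13), and averaged 0.136 in SCDM and 6.31 in SCDM/FGF. Motifs were searched on both strands in windows of 300 bases, 250 before and 50 after the start, and a gene was counted if any of its promoters held the letters. Of the 28 listed peptide genes, 23 had a promoter in the table, of which 18 held TGACG and 5 the full TGACGTCA. Of the 14 that rose, 13 had a promoter, of which 9 held TGACG and 2 TGACGTCA. Among all tested genes with a promoter, 3887 of 11411 (34.1%) held TGACG and 392 (3.44%) held TGACGTCA. Over all genes that rose, 250 of 783 with a promoter held TGACG (31.9%) and 32 TGACGTCA (4.09%), beside 209 (21.3%) and 15 (1.53%) of 981 genes that fell. Vgf was not among the promoters matched. A match is a run of letters and not a measured site.

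Ion channels and receptors rose in part. Of 38 listed voltage-gated channel genes 28 were tested, and 10 rose and 2 fell (median log2 fold change 0.83). Of 51 listed transmitter receptors 29 were tested, and 8 rose and 3 fell (median 0.41). When genes without the 1 TPM minimum were let in, the medians were 0.38 over 38 channel genes and 0.15 over 49 receptors. The shares of all genes that rose and fell were 7.14% and 8.80%. Scn3b, a sodium channel beta subunit, was at 0.381, 0.516 and 0.328 in the spheres and 26.9, 25.6 and 25.1 in FIBCL. Cacna1b, the pore of the N-type calcium channel at presynaptic terminals, went from 0.186, 0.297 and 0.487 to 15.8, 10.6 and 17.3. These values were low beside those of structural genes, but each FIBCL library exceeded each sphere library, as in 34.6% of all genes. Pore subunits of sodium channels stayed low apart from Scn8a, the main one of mature nodes, which rose from a mean of 1.23 to 9.23, while Scn1a and Scn9a averaged 0.145 and 0.0418 in FIBCL and were not tested. Chrna7, a nicotinic receptor, rose from 0.864, 0.341 and 0.622 to 14.7, 15.7 and 15.2. Of the AMPA-type glutamate receptors, Gria2 had a log2 fold change of 0.87 and Gria3 of -0.02, and neither passed, though Gria2 did with a pseudocount of 0.1. Gria4 fell from 7.23, 7.61 and 7.88 to 2.03, 2.08 and 1.68.

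Neuronal splicing factors and RNA-binding proteins also rose, in 9 of 16 genes tested with 0 lower (median log2 fold change 1.89). Elavl3, a Hu protein of neurons, was at 0.186, 0.149 and 0.160 in the spheres and 9.60, 9.40 and 9.33 in FIBCL, and Srrm4, the splicing activator of neuronal microexons, at 0.0762, 0.236 and 0.134 and 8.47, 8.29 and 8.78. Rbfox3, which encodes the NeuN antigen of mature neurons, was at 0.0254, 0 and 0.0252 and 1.46, 0.862 and 0.525, under the limit for testing. Rest, the repressor of neuronal genes in other cells, averaged 19.7 and 22.6, with a log2 fold change of 0.19 that did not pass. Bex1, Bex2 and Bex4, small X-linked genes high in neurons, which were picked after their values were seen, averaged 20.9, 4.41 and 2.36 in the spheres and 598, 184 and 172 in FIBCL.

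Transcription factors of neurogenesis gave a divided picture. Of 31 listed, 19 were tested, and 4 rose and 5 fell, beside 7.14% and 8.80% of all genes. The median was -0.17, which became 0.26 when genes without the 1 TPM minimum were let in. Sox11, a factor of young postmitotic neurons, was at 1.52, 1.40 and 1.66 in the spheres and 25.7, 25.5 and 28.1 in FIBCL (log2 fold change 3.44, SE 0.08). Scrt1, a neuronal repressor of the Snail family, was at 0.0169, 0.0787 and 0 and 7.95, 6.58 and 7.55, and Onecut2 at 0, 0.00874 and 0.0168 and 6.38, 5.78 and 6.73. Neurod1, the bHLH factor of spiral ganglion neuroblasts, was at 0.0254, 0 and 0 and 2.03, 2.13 and 2.71 (1.70), and its call was lost on the deposited TPM. Neurog1, the proneural factor upstream of it, averaged 0 in the spheres and 0.0159 in FIBCL. Ebf1 fell from 54.7, 46.3 and 53.4 to 5.44, 3.88 and 6.91 and Pou3f3 from 37.7, 36.5 and 38.3 to 10.5, 9.74 and 11.3, and Sox4 stayed at means of 61.8 and 74.4, with a log2 fold change of 0.26.

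Genes used as marks of spiral ganglion neurons moved in both directions. Of 21 listed, 14 were tested, and 5 rose while 3 fell (median 1.40), beside 7.14% and 8.80% of all genes. The number that rose was 2 on the deposited TPM and 9 with a pseudocount of 0.1 or 0.5. Slc17a7, described above, rose most (log2 fold change 3.24, SE 0.09). Pou4f1, a factor of sensory neurons, was at 0, 0.0524 and 0.0168 in the spheres and 3.02, 2.97 and 3.27 in FIBCL, Isl1 at 0.0508, 0 and 0.0672 and 2.01, 2.66 and 1.70, and Prox1 at 0.584, 0.699 and 0.664 and 3.96, 3.99 and 3.98. These 3 factors passed the test with FIBCL means under 4 scaled TPM, and the calls of Isl1 and Prox1 were lost on the deposited TPM, that of Isl1 also without FIBCL replicate 2 (log2 fold change 1.58 with it). Gata3, the factor of the otic lineage that marks these neurons, averaged 0.441 and 2.82, with a log2 fold change of 1.41 that did not pass. Neurotrophin receptors fell: Ntrk2, the BDNF receptor TrkB, went from 163, 167 and 166 to 1.81, 2.29 and 1.67 (log2 fold change -5.84, SE 0.09) and Ntrk3, the NT3 receptor TrkC, from 10.0, 9.01 and 10.2 to 1.34, 1.72 and 1.27 (-2.14, SE 0.10). Calb2, Pvalb and Slc17a6, which mark subsets of auditory and other neurons, averaged 0.0711, 0.290 and 0.123 in FIBCL and were not tested.

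**Figure D4:**
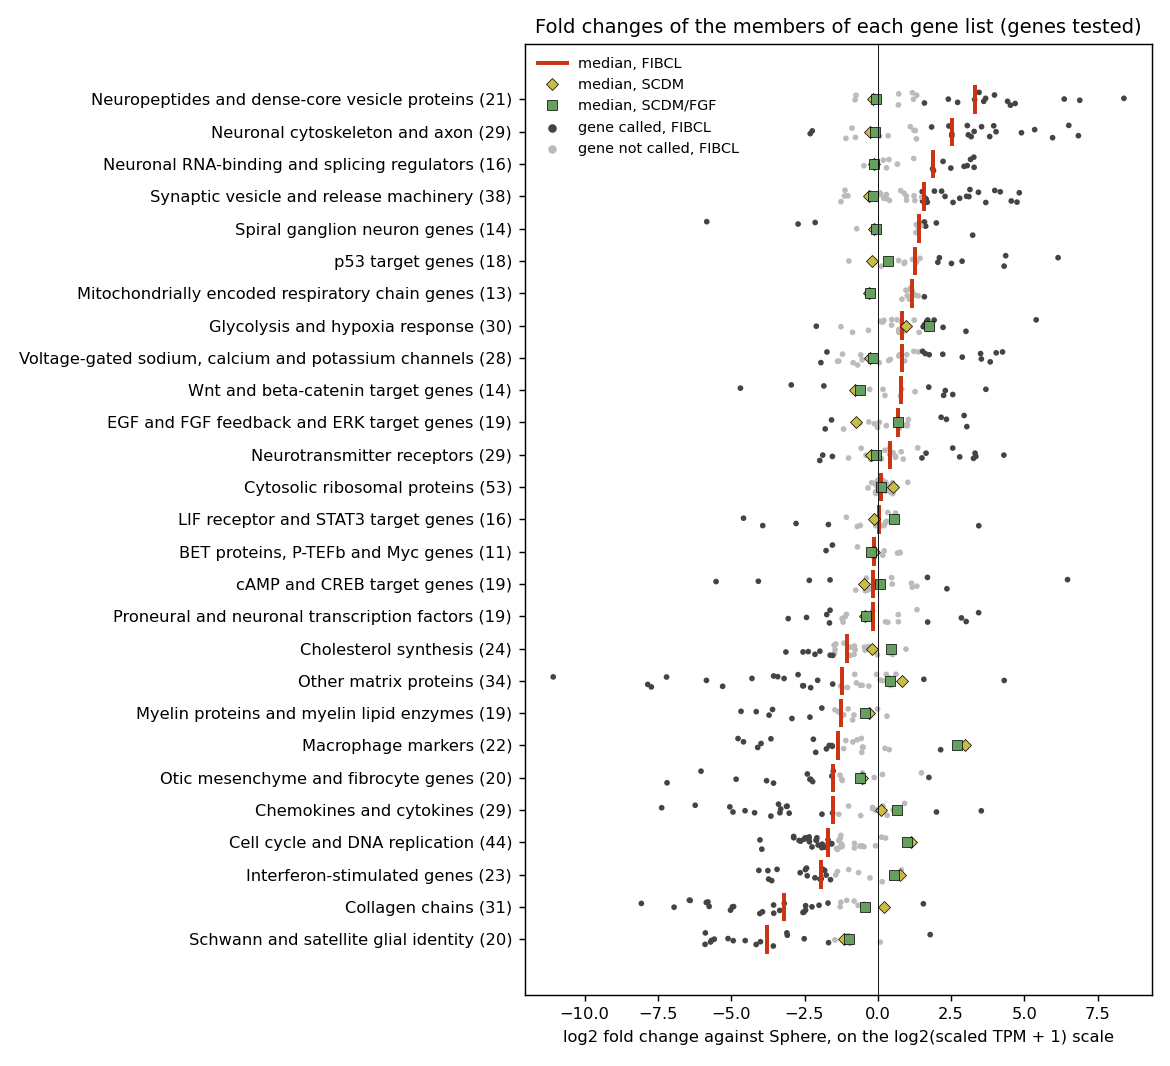
log2 fold change against spheres of the tested members of 27 gene lists (rows, number tested in brackets), with 1 grey point a gene for FIBCL, dark where the gene was called, and a red bar at the FIBCL median. Diamonds and squares are the medians for SCDM and SCDM/FGF against the same spheres, which stay near 0 for the neuronal lists while the FIBCL medians reach 3.30 for dense-core vesicle genes and -3.78 for glial identity genes.

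Tested directly against SCDM, 15 of the 21 peptide genes were higher in FIBCL (7.89% of all genes were) and 14 of the 20 glial genes lower (9.98% of all). Against SCDM/FGF, 14 peptide genes were higher (6.97% of all) and 13 glial genes lower (9.80% of all). The cytoskeleton list had 19 of 29 genes higher than in SCDM and 18 higher than in SCDM/FGF.

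Genes of cell division fell in FIBCL. Of 44 cell cycle and replication genes, 25 fell, 0 rose and 19 did neither, with a median of -1.69 (adjusted p of the called genes at most 3.4e-05, limma). Mki67, the proliferation antigen, was at 5.37, 4.71 and 6.30 in the spheres and 0.0359, 0.0369 and 0.0394 in FIBCL, and Top2a, the topoisomerase of dividing cells, at 17.9, 17.2 and 16.9 and 0.0957, 0.148 and 0.302. Cdk1, the kinase of mitotic entry, fell from 24.4, 26.2 and 26.7 to 1.12, 0.591 and 0.329. In all 3 genes the FIBCL libraries lay below the spheres, as in 40.4% of all genes. Against the same spheres, SCDM had a median of 1.14 with 4 of the genes higher (3.76% of all genes were) and SCDM/FGF 1.01 with 1 (4.12% of all), and Top2a averaged 45.6 and 42.9. Pcna had a log2 fold change of 0.13 in FIBCL and did not pass. The CDK inhibitors Cdkn1a, p21, at 214, 214 and 206 and 853, 888 and 894, and Cdkn2a, which encodes p16 and Arf, at 25.6, 36.8 and 28.0 and 309, 323 and 327, rose, whereas Cdkn1c, p57, fell from 52.8, 63.5 and 60.2 to 13.9, 16.4 and 10.8. In all, 2 of 12 D-type cyclins and CDK inhibitors rose and 2 fell, beside 7.14% and 8.80% of all genes. The fallers were 1 without FIBCL replicate 2 or under quantile scaling, where Cdkn2c (-1.60) lost its call, and 4 on the deposited TPM. Ccnd1, cyclin D1, was at means of 70.5 and 63.2 (-0.15).

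Targets of p53, the factor activated by DNA damage and other stress, rose in 7 of 18 cases with 0 lower, and the median was 1.27. Pmaip1, the BH3-only protein Noxa, was at 1.70, 0.866 and 1.26 in the spheres and 158, 155 and 164 in FIBCL (log2 fold change 6.15, SE 0.14). Mdm2, the ligase that limits p53, was at 52.5, 42.9 and 54.6 and 366, 361 and 387 (2.88, SE 0.09), and Perp at 4.70, 4.33 and 4.50 and 108, 115 and 113 (4.36, SE 0.18). In Mdm2 and Perp every FIBCL library was above every sphere library, as in 34.6% of all genes. Other targets did not pass, as Bbc3, the BH3-only protein Puma, had a log2 fold change of -0.09, Btg2 of 0.12 and Bax of 0.71. Medians of the list were -0.21 in SCDM and 0.35 in SCDM/FGF. Of the 29 genes of the unfolded protein and integrated stress responses, 3 rose and 2 fell, beside 7.14% and 8.80% of all genes. The risers were Ddit4, an mTOR inhibitor, from 55.2, 54.3 and 54.1 to 422, 425 and 435, and Asns and Sesn2, whose calls were lost on the deposited TPM. Atf3 fell from 186, 188 and 185 to 48.4, 53.4 and 57.6.

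Genes of the pathways tied to each agent were read in turn. No library held an agent by itself, so the parts of the agents in these changes cannot be told apart. For Forskolin, 3 of 19 cyclic AMP and CREB target genes rose and 4 fell (median log2 fold change -0.15), beside 7.14% and 8.80% of all genes. Inhba, the activin subunit, was at 0.576, 0.927 and 0.739 in the spheres and 162, 154 and 146 in FIBCL (log2 fold change 6.47, SE 0.13), Crem, a CREB family regulator, at 12.1, 13.2 and 13.1 and 68.5, 77.0 and 64.0, and Pde4d, a phosphodiesterase that degrades cyclic AMP, at 2.47, 2.67 and 2.61 and 10.5, 10.7 and 10.6. Those 3 rose, while the immediate early genes Fos, from 331, 317 and 321 to 17.7, 19.9 and 17.2, and Fosb, from 57.0, 46.9 and 51.4 to 0.0239, 0.234 and 0.197, fell. Nr4a1, a nuclear receptor of the same early class, fell from 7.24, 7.45 and 5.60 to 1.60, 1.28 and 1.62. Fos averaged 49.7 in SCDM and 40.4 in SCDM/FGF, where the mixture was absent, also below the spheres. Of the 16 genes of the list with a promoter, 14 held TGACG and 1, Dusp1, held TGACGTCA, but neither run of letters was found in the 2 risers with a promoter.

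For CHIR99021, 5 of 14 Wnt and beta-catenin targets rose and 3 fell (median 0.79), beside 7.14% and 8.80% of all genes. Axin2, the feedback inhibitor of the pathway, was at 5.91, 5.57 and 4.66 in the spheres and 30.9, 29.9 and 30.4 in FIBCL (log2 fold change 2.30, SE 0.11). Nkd1, another feedback inhibitor, was at 4.66, 4.47 and 5.26 and 31.3, 34.2 and 33.8, and Lgr6, an R-spondin receptor, at 0.220, 0.358 and 0.412 and 16.3, 16.7 and 15.4. Sp5 and Tnfrsf19 rose to means of 9.50 and 37.9. The secreted inhibitor Wif1 fell from 30.2, 32.0 and 27.2 to 0.215, 0.0369 and 0.355 and Lef1, a factor that binds beta-catenin, from 33.6, 32.8 and 31.6 to 7.87, 7.75 and 9.71. Axin2 averaged 2.28 in SCDM and 3.15 in SCDM/FGF, below the spheres. The TCF/LEF letters ATCAAAG were found in the promoters of Sp5 and Tnfrsf19 among the 13 list genes with a promoter, beside 3.05% of tested genes. Over all genes with a promoter, the letters were held by 2.04% of those that rose and 2.96% of those that fell.

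**Figure D5:**
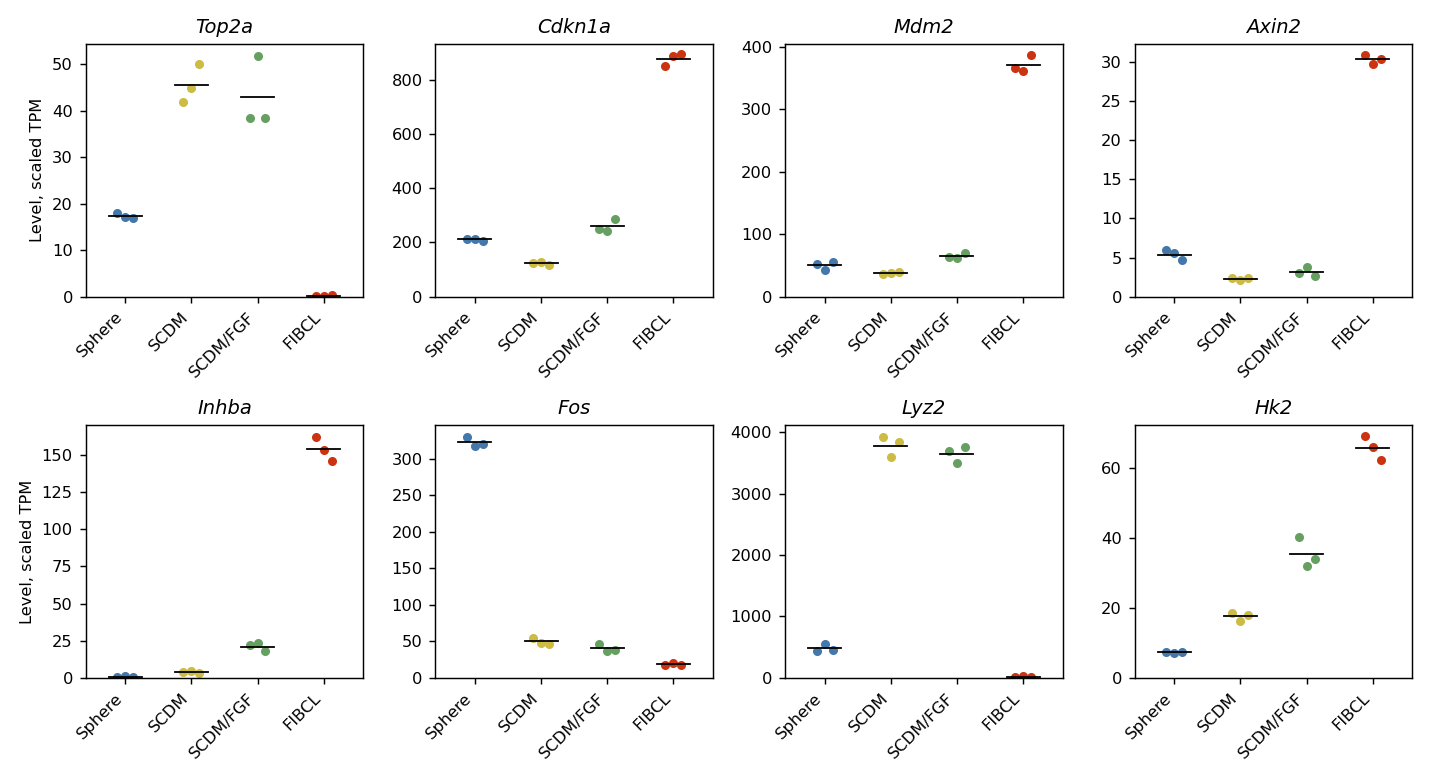
Level in scaled TPM of 8 genes in the 4 groups, 1 point a library and a bar at the mean of 3. Top2a is highest in the 2 media without the mixture and near 0 in FIBCL, Cdkn1a, Mdm2, Axin2, Inhba and Hk2 are highest in FIBCL, Fos is highest in spheres, and Lyz2 is highest in the 2 media without the mixture.

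For I-BET, 0 of 11 BET, P-TEFb and Myc genes rose and 2 fell, Myc and Hexim2 (median -0.13). The shares over all genes were 7.14% and 8.80%. Hexim2 (-1.55) was no longer called without FIBCL replicate 2, without sphere replicate 1 or under quantile scaling, which left 1 faller. Myc, which BET inhibitors are known to lower in many cells, was at 19.2, 17.9 and 19.5 in the spheres and 5.31, 5.79 and 3.65 in FIBCL (log2 fold change -1.77, SE 0.11), and averaged 43.8 in SCDM and 50.4 in SCDM/FGF. Hexim1, an inhibitor of P-TEFb often used as a marker of BET inhibition, averaged 33.3 and 57.0, with a log2 fold change of 0.76 under the limit. Brd2, encoding a BET protein itself, had a log2 fold change of 0.75 and did not pass. For ISX9, 1 of 15 MEF2 and calcium signalling genes rose and 4 fell (median -0.42), beside 7.14% and 8.80% of all genes. The riser was Camk1d, one of the 11 abundant features given above, and the fallers were the class II deacetylases Hdac5, from 76.0, 76.7 and 69.5 to 13.0, 11.3 and 15.2, Hdac7 and Hdac9, which bind MEF2, and Camk1g. Mef2c itself had a log2 fold change of -0.98 and did not pass.

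For LIF, 1 of 16 STAT3 target and receptor genes rose and 4 fell, with a median of 0.03 that was -0.47 on the deposited TPM. Over all genes 7.14% rose and 8.80% fell. Timp1, a metalloprotease inhibitor, rose from 293, 295 and 269.5 to 3084, 3225 and 3047 (log2 fold change 3.44, SE 0.08). Socs3, the feedback inhibitor of the pathway, averaged 27.9 and 42.9, a log2 fold change of 0.60 that did not pass. The acute phase genes Serpina3n, from 405, 425 and 402 to 27.5, 26.4 and 24.4, and Lcn2, from 3180.0, 3449 and 3104 to 443, 469.6 and 492, fell, as did Il6st, the shared receptor gp130. Lifr, the LIF-binding chain of the receptor, had a log2 fold change of -1.07. Whether LIF reached these libraries is not shown by the column names, which omit its letter. Among EGF and FGF response genes 4 of 19 rose and 2 fell, beside 7.14% and 8.80% of all genes. Dusp4, an ERK phosphatase, was at 19.6, 19.9 and 19.8 and 90.8, 92.5 and 92.2, and Ier3 at 113, 114 and 114 and 922, 942 and 957. Spry2, a feedback inhibitor of receptor kinases, was at 24.0, 23.4 and 21.9 and 6.29, 6.32 and 5.25. Without FIBCL replicate 3 or under quantile scaling the fallers were 1, as Spry1 (-1.58) lost its call. Both the sphere medium and the FIBCL medium held bFGF.

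Genes of inflammation fell. Of 29 chemokine and cytokine genes, 15 fell and 2 rose (median -1.54). Cxcl12, a chemokine of stromal cells, fell from 696, 701 and 704 to 2.09, 3.71 and 4.19 and Ccl2, a monocyte attractant, from 153, 153 and 148 to 5.37, 6.10 and 5.32. The risers were Il11, from a mean of 1.70 to 30.1, and Lif itself, from 3.37, 5.37 and 3.65 to 19.3, 18.6 and 19.9. Il6 did not pass and overlapped between groups (0.06, SE 0.24). Interferon-stimulated genes fell in 16 of 23 cases and rose in 0, with a median of -1.93, in place of 0.76 in SCDM and 0.56 in SCDM/FGF. Isg15 was at 29.6, 28.4 and 25.2 in the spheres and 0.981, 1.21 and 1.21 in FIBCL.

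Markers of other cells that the modiolus could supply were followed as lists. Of 22 macrophage markers tested, 11 fell and 1 rose in FIBCL (median -1.36), and the list summed to 732 to 897 in the sphere libraries and 241 to 284 in the FIBCL libraries. Lyz2, lysozyme, was at 440.1, 553 and 456 in the spheres and 16.8, 22.7 and 18.2 in FIBCL, and C1qa, complement made by tissue macrophages, at 22.1, 26.1 and 19.9 and 0.562, 0.394 and 0.197. In SCDM 20 of the 22 markers were higher than in the spheres (3.76% of all genes were) and in SCDM/FGF 21 (4.12% of all), and Lyz2 averaged 3780.5 and 3649, so the media without the mixture and FIBCL lay on opposite sides of the spheres. The riser in FIBCL was Cd68, a lysosomal protein, at 34.2, 42.4 and 33.1 and 152, 176 and 165, beside the lysosomal proteases Ctsb, at 1217, 1235 and 1158 and 6142, 6630.1 and 6345, and Ctsl, at 1198, 1264 and 1166 and 4112, 4229 and 4028. Of 18 lysosomal genes 2 rose and 1 fell, beside 7.14% and 8.80% of all genes, and the call of Ctsl was lost on the deposited TPM. Csf1r, the defining receptor of macrophages, was at 4.46, 6.82 and 4.28 and 0.538, 0.296 and 0.171. The part of macrophages in the fall of interferon-stimulated and cytokine genes was not tested.

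Endothelial and mural genes fell in 5 of 13 cases and rose in 2, beside 8.80% and 7.14% of all genes. Their median was -1.10, and their summed level was 192 to 208 in the sphere libraries and 127 to 136 in the FIBCL libraries. Emcn, endomucin, was at 96.6, 98.8 and 94.2 in the spheres and listed at 0 in every FIBCL library. Pecam1 was at 2.18, 1.58 and 1.78 and 0.203, 0.0862 and 0.0394, a log2 fold change of -1.36 that did not pass. Its fall did pass on the deposited TPM and with a pseudocount of 0.1 or 0.5. The VEGF receptors rose, Flt1 from 0.974, 1.29 and 1.03 to 19.1, 17.8 and 18.7 and Kdr from 0.822, 0.892 and 0.748 to 9.94, 9.89 and 10.5. Of 10 melanocyte genes 4 were tested, and 0 rose and 0 fell by limma. The adjusted p alone was met by 0 higher and 2 lower, beside 32.9% and 38.7% of all genes. In the epithelial and hair cell list the median was -0.90. Of 7 tested genes, 4 lay below the spheres in every FIBCL library, beside 40.4% of all tested genes. None of the 4 passed the fold change limit (Cdh1, E-cadherin, -0.95), though Cdh1 did with a pseudocount of 0.1. The 2 that rose were Epcam, from 1.11, 1.06 and 2.01 to 13.7, 13.6 and 12.4, and Espn, an actin bundler of stereocilia, from 1.06, 0.787 and 0.958 to 12.4, 13.3 and 12.4. Myo7a, a hair cell myosin, did not pass and overlapped between groups (log2 fold change 0.21, SE 0.13) and Atoh1, the factor of hair cells, was listed at 0 in 5 of the 6 libraries. Of 10 smooth muscle genes 2 rose and 0 fell, beside 7.14% and 8.80% of all genes. The risers were Myh11 and Tpm2, with log2 fold changes of 1.765 and 1.735, and the call of Tpm2 was lost on the deposited TPM. The list summed to 291 to 328 in the sphere libraries and 451 to 458 in the FIBCL libraries. Acta2 was at 1.48, 0.970 and 0.605 in the spheres and 0.132, 0.0985 and 0.223 in FIBCL, a log2 fold change of -0.79 that did not pass. With a pseudocount of 0.1 Acta2 passed, and 3 genes of the smooth muscle list rose and 3 fell.

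Metabolism changed in named steps. Of 30 glycolysis and hypoxia genes 9 rose and 1 fell (median 0.84), beside 7.14% and 8.80% of all genes. SCDM had a median of 0.95 and SCDM/FGF of 1.74. Slc16a3, a lactate exporter, was at 2.44, 3.53 and 2.02 in the spheres and 155, 152 and 148 in FIBCL, Hk2, the inducible hexokinase, at means of 7.29 and 65.7, and Gapdh at 712, 769.9 and 685 and 2375, 2408 and 2270.4. The calls of Gapdh and of Slc2a1, a glucose transporter, were lost on the deposited TPM, and that of Gapdh under quantile scaling too. Cholesterol synthesis genes fell in 7 of 24 cases and rose in 0 (median -1.05), beside 8.80% and 7.14% of all genes. Hmgcs1, an early enzyme of the pathway, fell from 151, 152 and 159.5 to 29.1, 28.6 and 29.0 and Insig1, a sterol sensor partner, from 129, 120.4 and 128 to 14.0, 12.8 and 13.5. Ass1, of arginine synthesis, and Odc1, the first enzyme of polyamine synthesis, both picked after their values were seen, averaged 22.1 and 32.2 in the spheres and 1084 and 1543 in FIBCL. Mitochondrially encoded genes had a median of 1.16, which was 0.25 under quantile scaling, and 1 of 13 rose, beside 7.14% of all genes. That gene was mt-Co3, at 215, 512 and 378 and 549.5, 1451 and 1428, whose call was lost without FIBCL replicate 2 or 3 or sphere replicate 1 (log2 fold change 1.59, SE 0.47). Among 53 cytosolic ribosomal protein genes 0 rose and 0 fell, with a median of 0.10 that was -0.44 on the deposited TPM. The adjusted p alone was met by 26 higher and 2 lower, beside 32.9% and 38.7% of all genes. Of 15 housekeeping genes 2 rose and 0 fell, beside 7.14% and 8.80% of all genes, with a median of 0.20 that was -0.33 on the deposited TPM. Imprinted and fetal growth genes fell in 4 of 11 cases and rose in 1, beside 8.80% and 7.14% of all genes. H19 fell from 172, 167 and 172 to 1.05, 0.739 and 0.828, and averaged 2128 in SCDM and 1466 in SCDM/FGF. Igf2 fell from 170.3, 177 and 174 to 31.3, 24.5 and 30.6. Of 17 Notch and Id genes 3 rose and 2 fell, beside 7.14% and 8.80% of all genes. Notch1 went from 40.0, 35.0 and 40.6 to 11.5, 11.9 and 9.87 and the ligand Jag2 from 0.661, 1.50 and 0.823 to 12.5, 10.6 and 10.0. Hes1 had a log2 fold change of -0.08 that did not pass.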

How the data were processed

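Poly(A) RNA of 12 libraries was sequenced in the study, 3 each from spheres, SCDM, SCDM/FGF and FIBCL, and the comparison of FIBCL with spheres rests on 6 of them, grouped by the sample labels. SeqPrep and Sickle served the authors for trimming, TopHat for alignment and RSEM for quantification, and TPM with 2 decimals were deposited for 55487 genes. Versions and the genome build are not given in the sources used here. TPM keeps no depth, so no precision from counting could be given and count tests were not run.

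A gene was kept where 3 or more of the 12 libraries reached 1 TPM (16016 genes). Scaling used the mean log2 ratio against the average library after trimming 30% at each end, over 8434 genes that reached 5 TPM in all libraries. Values were analysed as log2(scaled TPM + 1) in limma 3.58.1 (R 4.3.3) with a variance trend, in one model of the 4 groups without covariates, which share 1 estimate of spread. Adjustment was by Benjamini-Hochberg within a comparison.

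The comparison and the 39 gene lists were chosen with earlier results of these data known, and no list was tested as a set. A list is described by its counts and median, to be read against the shares and the median over all genes. The named genes were the 15 highest and 15 lowest log2 fold changes that met the adjusted p limit, averaged 10 scaled TPM or more in the higher group and did not overlap, and for each list 2 anchors, the 4 largest called changes and the 2 called changes furthest against the median, with cell type markers. Genes said to be picked after their values were seen fall outside this rule, and so do the list members given as examples that did not pass. Some members of the lists are not reported here by name. For symbols with several identifiers the most abundant was used. Positions and biotypes are from GENCODE M21 and promoters from RefSeq (GRCm38.p6). Alternatives changed the pseudocount, the scaling, the minimum TPM, the call rule, the libraries in the model, the variance trend and the replicate block, and left out each library in turn. Tables and plots used Python 3.11.15, pandas 2.3.3 and matplotlib 3.10.9.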

Additional observations from a re-analysis of the deposited data

How the results depend on the processing

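Depth is unknown, and 3 libraries a group limit the precision. The counts of higher and lower genes in FIBCL were 1144 and 1410. They were 761 and 2224 on the deposited TPM, 1580 and 2271 with a pseudocount of 0.1, 2009 and 2487 with a fold change limit of 1 on the log2 scale, and 5276 and 6194 with the adjusted p alone. Leaving out 1 library at a time gave 1139 to 1162 higher and 1408 to 1416 lower genes. Other alternatives stayed within 1.5 times of both counts, and quantile scaling gave 1278 and 1249. Of 214 called genes among the 257 named and tested, 193 kept their call in all 16 refits, 21 lost it in at least 1 and none changed direction. Of the others, 12 were called in at least 1 alternative. The deposited TPM took away 17 of these calls, quantile scaling 6, and leaving out 1 library from 0 to 4. The replicate block gave 1146 and 1409 genes and changed no call of a named gene. Whether replicate numbers pair the libraries is not said by the labels. Same-numbered FIBCL and sphere libraries had deviations from their group means correlated at -0.02, 0.03 and 0.07. Of the 3 numbers it was replicate 3 alone whose libraries correlated best with each other. Means of 3 libraries tie these deviations to each other, so the values cannot decide whether the libraries are paired. Tests on counts were not run, because TPM holds no counts.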
